A study of Xenopus laevis with 6 samples.

Results

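The genes described here are the cyclins, cyclin-dependent kinases, Cdc genes, Mcm helicase subunits, origin recognition subunits and E2F factors measured in Xenopus laevis animal caps. They were chosen by name: every probe set with 1 gene symbol made of ccn and a letter, or of cdk, cdc, mcm, orc or e2f and a digit. The 13 probe sets whose symbol starts with cdc42, the name of a small GTPase of cell shape, were left out. So were 3 probe sets that carried a matching name among several symbols. This gave 115 probe sets for 94 of the 7531 genes with 1 symbol on the array. Each gene was read from the probe set with the highest mean over the 6 arrays, a rule that uses no difference between arrays. The members and rules were, however, chosen with earlier results of these data known. Of the 94 genes, 55 are copies on the long chromosomes (.L) and 38 on the short chromosomes (.S) of this species' duplicated genome, and ccnd2 carries no ending beside a separate ccnd2.L. They stand for 73 gene names, of which 20 were measured in both copies.

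The 3 groups were Mixer-injected caps, Sox17beta-injected caps and uninjected caps, with 2 arrays each, all taken at gastrula stage 10.5. An animal cap is a piece of pluripotent ectoderm explanted from the animal pole, which forms epidermis when cultured alone. Mixer has a homeodomain and Sox17beta an HMG box, both are DNA-binding regulators of endoderm formation, and the study asked which genes respond to each. The sources used here give the sex as mixed, and neither the injected dose nor the number of caps per sample. The labels number the replicates of every group 1 and 2 but name no separate clutches. The p-values therefore cover the spread among these arrays alone, and that spread may be technical.

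A dividing cell passes from growth into DNA synthesis and then into mitosis through kinases that act only when bound to a cyclin. D- and E-type cyclins drive entry into DNA synthesis, A- and B-type cyclins drive synthesis and mitosis, and E2F factors switch the transcription of many of these genes. Before synthesis, the origin recognition complex, Cdc6 and the Mcm helicase are loaded onto DNA, and Cdc7, Cdc45 and Mcm10 help to start the forks. The early frog embryo divides rapidly on RNAs stored in the egg. Its cell cycles lengthen from the mid-blastula transition on, when the embryo starts to make its own transcripts.

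Values are deposited log2 expression values, so a difference of 1 is a 2-fold change, and values of different probe sets are not compared with one another. Array medians lay between 6.5 and 6.55. The injected genes followed the labels: mixer.L read 14.07 and 14.06 in Mixer caps, against 6.46 and 6.54 in uninjected caps. The sox17b.1.S probe set with the higher reading had 13.11 and 13.90 in Sox17beta caps, 9.63 and 9.33 in Mixer caps, and 6.91 and 6.70 in uninjected caps. Of the 94 members, 77 lay above the highest of the 44 controls for absent transcripts on all 6 arrays, 10 lay at or below it on all 6, and 7 on some. Sox17beta replicate 1 stood apart on these controls. Their median was 4.06 and their highest value 6.62 there, against 3.725 to 3.85 and 5.9 to 6.09 on the other 5 arrays. Hybridization controls, RNAs added at hybridization, were 1.67 log2 units higher in replicate 1 than in replicate 2 of Mixer caps, 1.23 in Sox17beta caps and 1.23 in uninjected caps. Markers of the tissue moved with the injections. The array mean of 13 epidermal and ectodermal genes ran from 7.6 to 8.58 in Mixer caps and 6.65 to 7.28 in Sox17beta caps, against 8.79 to 9.57 in uninjected caps. That of 14 endodermal genes was 7.34 to 7.82 in Mixer, 6.37 to 6.48 in Sox17beta and 5.35 to 5.39 in uninjected caps. These 14 include the injected mixer.L and sox17b.1.S. Their own differences from uninjected caps, 7.565 in Mixer caps and 6.7 in Sox17beta caps, are part of these means. The median difference of the 14 was 2.013 in Mixer caps and 0.198 in Sox17beta caps. Of the 14, 3 lay above the absent-transcript controls on all 6 arrays and 3 at or below them on all 6. The array mean of 8 neural plate genes was 7.39 to 7.42 in Sox17beta caps. It was 6.79 to 7.34 in Mixer caps and 6.75 to 7.14 in uninjected caps. Of 9 mesodermal and 6 blood genes, 6 and 5 lay at or below the absent-transcript controls on all 6 arrays.

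A member is counted as higher or lower where its adjusted p was under 0.05 in limma, with Benjamini-Hochberg adjustment over all 15491 tested probe sets. The fit without a term for the replicate number passed 0 of 94 members in any of the 3 comparisons between groups. At an unadjusted p under 0.05, that fit had 4 members for Mixer against uninjected caps, 8 for Sox17beta against uninjected caps and 7 for Mixer against Sox17beta caps. Of all probe sets, 2.87%, 6.26% and 3.97% had such an unadjusted p in these comparisons, and 0.0387%, 0.0194% and 0.0581% passed after adjustment. Arrays of the same replicate number varied together, so a fit with that number as a block was set beside it. The words rose and fell below refer to this blocked fit, an alternative to the main fit without the block. It leaves the differences as they are and changes only their errors. With it, 2 members passed for Mixer against uninjected caps, 16 for Sox17beta against uninjected caps and 6 for Mixer against Sox17beta caps. As shares these were 2.13%, 17% and 6.38% of the members, against 1.31%, 5.45% and 1.56% of all probe sets. Among probe sets with a mean above the 25th percentile, 2, 15 and 6 of 88 members passed, against 1.61%, 6.5% and 1.77% of all such probe sets.

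**Figure D1:**
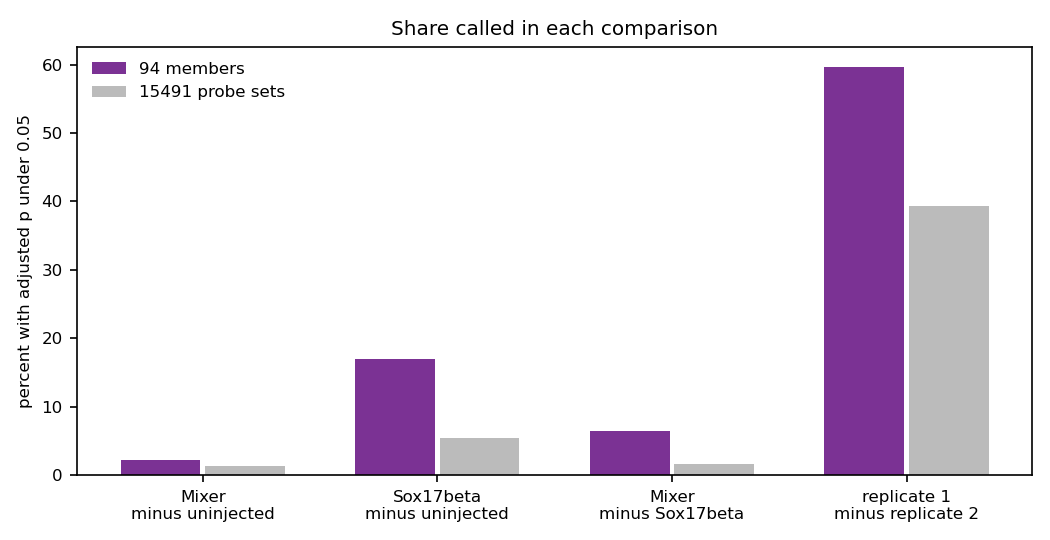
Percent of the 94 members (purple bars) and of all 15491 probe sets (grey bars) with an adjusted p under 0.05, in limma with the replicate block for the 3 comparisons of groups and with the groups as a term for replicate 1 against replicate 2. The members' bars stand at 2.13%, 17%, 6.38% and 59.6%, against 1.31%, 5.45%, 1.56% and 39.4% of all probe sets. The first is 2 of 94 members, near the share of all probe sets.

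In Sox17beta caps, 3 of 7 D- and E-type cyclins fell, ccne2.L and both copies of ccnd1, and 1 rose, while ccnb1.S and both copies of ccna1, among the A- and B-type cyclins, rose. Of 5 E2F factors, e2f1.L and e2f4.S rose and e2f7.L fell, and of 23 genes for origin licensing and firing 1 passed the test. In all, 7 members rose (1.88% of all probe sets did) and 9 fell (3.56% did). The median difference over the 94 members was -0.03 log2 units, against 0.04 over all probe sets. Groups did not overlap in 25 of 94 members (26.6%), against 30.4% of all probe sets.

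The largest difference was that of ccne2.L, which encodes cyclin E2, a partner of Cdk2 in starting DNA synthesis. It read 6.43 and 5.95 in Sox17beta caps, against 8.49 and 8.71 in uninjected caps. Both Sox17beta arrays lay more than 2 log2 units below both uninjected arrays, and there the probe set was no longer above the controls for absent transcripts. The difference was -2.41 ± 0.20 (standard error), a 5.31-fold fall (limma, adjusted p 0.00266 with the block and 0.096 without it). Because the Sox17beta arrays were at the level of those controls, this fold may understate the change.

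Cyclin D1, which binds Cdk4 and Cdk6, fell in both copies. The long-chromosome copy ccnd1.L read 7.13 and 6.36 in Sox17beta caps, against 8.75 and 8.24 in uninjected caps. The short-chromosome copy ccnd1.S read 8.47 and 7.61 in Sox17beta caps, against 9.72 and 9.23 in uninjected caps. For each copy both Sox17beta arrays lay below both uninjected arrays. The differences were -1.75 ± 0.12 and -1.44 ± 0.13 (limma with the block, adjusted p 0.00202 and 0.00363), and without the block the adjusted p was 0.272 and 0.435. A probe set named ccnd2, another D-type cyclin, read 4.81 and 4.40 in Sox17beta caps, against 4.19 and 3.88 in uninjected caps. It rose by 0.57 ± 0.11 (limma, adjusted p 0.0324 with the block), but it lay at or below the absent-transcript controls on all 6 arrays. The separate ccnd2.L and the 2 copies of ccne1, cyclin E1, differed by 0.18, 0.15 and -0.12, and none passed the test.

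Among A- and B-type cyclins, 3 of 11 rose and 0 fell. The mitotic cyclin gene ccnb1.S read 12.05 and 11.49 in Sox17beta caps, against 11.10 and 9.42 in uninjected caps. The uninjected arrays differed more from each other than the Sox17beta arrays did, and the groups did not overlap. Its difference was 1.51 ± 0.24, a 2.85-fold rise (limma, adjusted p 0.0157 with the block). Cyclin A1, an embryonic A-type cyclin in this species, rose in both copies. Its .S copy read 11.36 and 10.50 in Sox17beta caps, against 10.75 and 8.90 in uninjected caps, and its .L copy 11.61 and 10.72 in Sox17beta caps, against 10.99 and 9.72 in uninjected caps. For both copies the 2 groups overlapped, and Sox17beta caps were higher within each replicate number. The differences were 1.11 ± 0.22 and 0.81 ± 0.13 (limma with the block, adjusted p 0.038 and 0.0168). The remaining 8 members ranged from -0.67 for ccnb3.S, a B3-type cyclin, to 0.36, and ccnb3.S had an adjusted p of 0.112 in limma with the block.

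**Figure D2:**
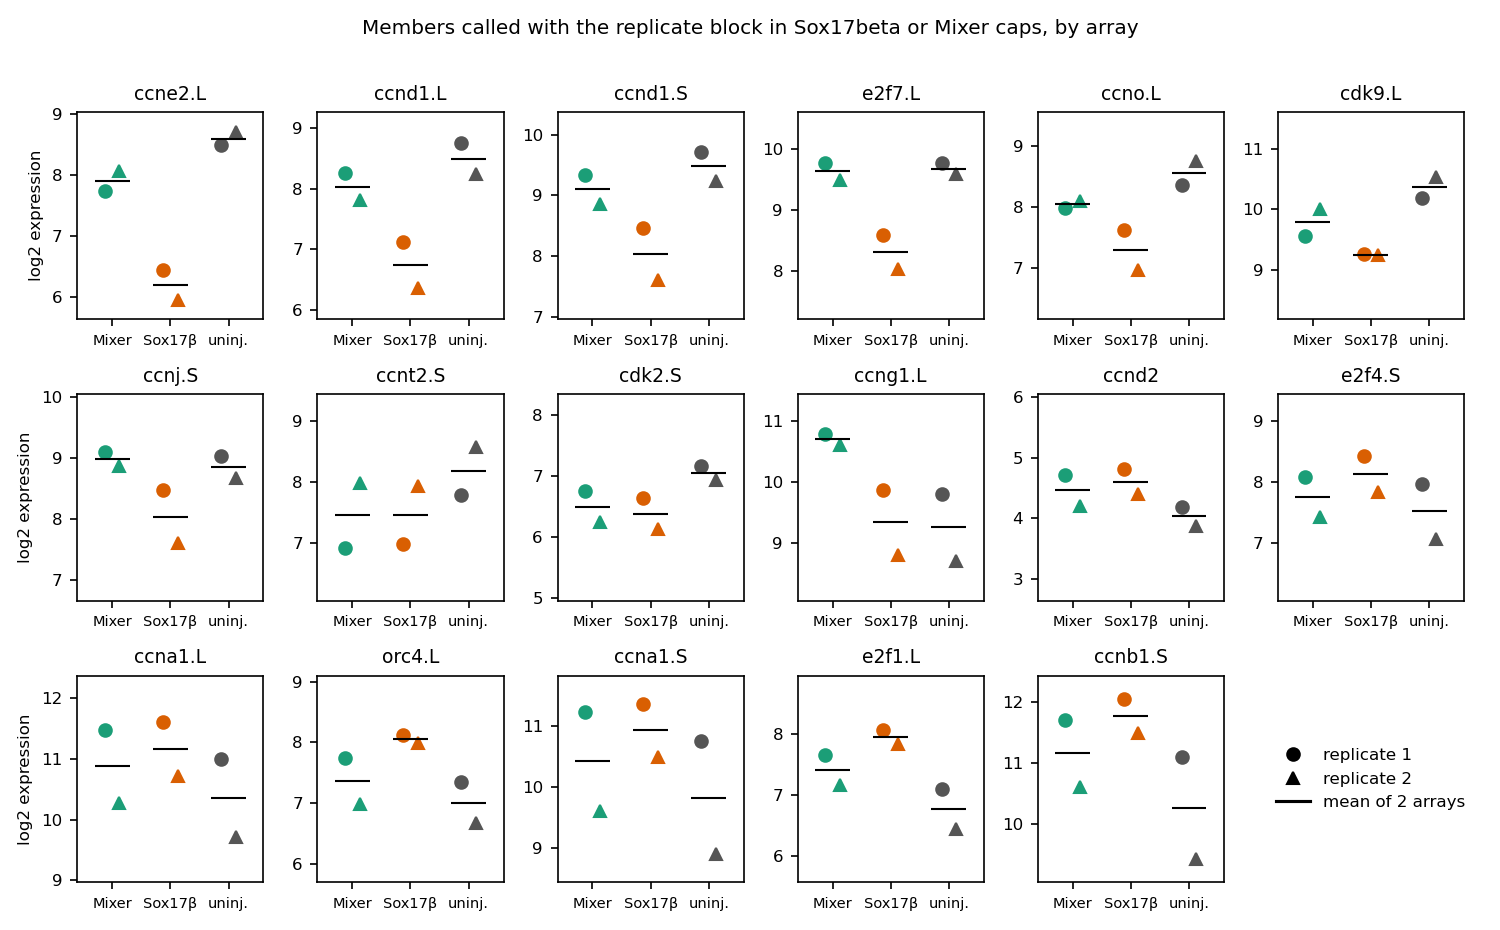
Log2 expression of the 17 members that passed the test with the replicate block in Sox17beta or Mixer caps, with 1 panel a gene, groups on the horizontal axis, circles for replicate 1, triangles for replicate 2 and bars for the mean of 2 arrays. Every panel spans the same number of log2 units. Sox17beta caps are lowest for ccne2.L, ccnd1.L, ccnd1.S and e2f7.L and highest for e2f1.L and orc4.L, while ccng1.L is highest in Mixer caps, and in ccna1.S and ccnt2.S the 2 replicates differ as much as the groups.

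The 3 E2F genes that passed did not share a direction. E2F1 activates genes of DNA synthesis, and e2f1.L read 8.08 and 7.84 in Sox17beta caps, against 7.11 and 6.45 in uninjected caps. E2F7 represses such genes, and e2f7.L read 8.58 and 8.03 in Sox17beta caps, against 9.77 and 9.59 in uninjected caps. In neither gene did the groups overlap. The differences were 1.18 ± 0.13 for e2f1.L and -1.38 ± 0.13 for e2f7.L (limma with the block, adjusted p 0.00579 and 0.00363; 0.421 and 0.222 without it). The repressive family member e2f4.S read 8.43 and 7.84 in Sox17beta caps, against 7.97 and 7.06 in uninjected caps. Its groups overlapped, and it rose by 0.62 ± 0.12 (limma with the block, adjusted p 0.0349). The differences of e2f3.S and e2f8.L were 0.08 and -0.36, and neither passed the test.

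Of 4 cell cycle kinase genes, cdk2.S alone passed the test. Cdk2 is the partner of cyclins E and A, and cdk2.S read 6.64 and 6.13 in Sox17beta caps, against 7.17 and 6.93 in uninjected caps. Both Sox17beta arrays lay below both uninjected arrays, by -0.67 ± 0.12 on average (limma with the block, adjusted p 0.0254; 0.822 without it). The mitotic kinase Cdk1 differed by -0.25 in its .L copy and -0.24 in its .S copy, and cdk4.S by -0.14. Among 6 kinases of transcription, cdk9.L passed. Cdk9 is the kinase of the elongation factor P-TEFb, and cdk9.L read 9.26 and 9.25 in Sox17beta caps, against 10.18 and 10.54 in uninjected caps. The 2 Sox17beta arrays were almost equal and far below both uninjected arrays. Its fall was -1.11 ± 0.14 (limma with the block, adjusted p 0.00751).

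Its cyclin partner ccnt2.S read 6.98 and 7.94 in Sox17beta caps, against 7.78 and 8.57 in uninjected caps. Replicate 2 was the higher in both groups, so the groups overlapped, and Sox17beta caps were lower within each number. It fell by -0.72 ± 0.12 (limma with the block, adjusted p 0.0181). The splicing cyclin ccnl2.L read 8.07 and 6.98 in Sox17beta caps, against 8.42 and 8.32 in uninjected caps. Its groups did not overlap, but the Sox17beta arrays lay far apart, and at -0.85 ± 0.22 the adjusted p was 0.0843 (limma with the block).

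Among cyclins outside these classes, ccno.L and ccnj.S fell. Cyclin O is needed for the multiplication of centrioles in multiciliated cells, a cell type of the epidermis. The values of ccno.L were 7.62 and 6.96 in Sox17beta caps, against 8.36 and 8.76 in uninjected caps. The array values did not overlap, and the difference was -1.27 ± 0.24 (limma with the block, adjusted p 0.028). Of the other multiciliated cell markers searched for, only myb.S was measured, and it lay at or below the absent-transcript controls on all 6 arrays. Cyclin J is an atypical cyclin, and ccnj.S read 8.47 and 7.60 in Sox17beta caps, against 9.03 and 8.67 in uninjected caps. The higher Sox17beta array lay just under the lower uninjected one, and the difference was -0.82 ± 0.17 (limma with the block, adjusted p 0.0376). The ubiquitin ligase cyclin ccnf.L differed by -0.38 with groups that did not overlap (adjusted p 0.249 in limma with the block).

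The origin recognition subunit orc4.L stood alone among 23 genes for origin licensing and firing. It read 8.12 and 7.99 in Sox17beta caps, against 7.35 and 6.67 in uninjected caps, and both Sox17beta arrays lay above both uninjected arrays. The rise was 1.05 ± 0.17 (limma with the block, adjusted p 0.0171). The remaining 22 genes ranged from -0.56 for mcm6.2.L to 0.31 for orc1.L, and their group had a median of 0.02. None of the 12 genes for Mcm2 to Mcm8 passed, with or without the block. Nor did any Cdc25 phosphatase, subunit of the anaphase-promoting complex or Cdc14 gene. In the fit without the block, the smallest p in those roles belonged to cdc25a.L, a phosphatase that activates the kinases, at -0.23, and to cdc14b.S, a phosphatase whose budding yeast relative acts in mitotic exit, at -0.45 (limma with the block, adjusted p 0.0685). The Cdk-related kinase cdk17.S and the ubiquitin-conjugating enzyme cdc34.L had the smallest p of the last 2 roles in the fit without the block, at -0.15 and -0.27.

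All 16 members that passed kept 1 direction in both replicate numbers. The blocked fit favours such members, because its error grows with disagreement between the numbers, so this is no separate check. In 14 of the 16 the difference was the larger in replicate 2. For ccno.L it was -0.74 within replicate 1 and -1.8 within replicate 2, and for ccnb1.S 0.95 and 2.07. The array with the raised absent-transcript controls was Sox17beta replicate 1. Over the 6 single omissions in the blocked fit, the difference of ccne2.L ran from -2.79 to -2.03 and that of e2f4.S from 0.475 to 0.765. Without Sox17beta replicate 1, that group held 1 array and showed no spread of its own, so the calls of that fit were no check. With any other array left out instead, 0 of the 16 passed. Every epidermal and ectodermal marker also lay lower on both Sox17beta arrays than on both uninjected ones, 13 of 13. In the blocked fit 12 of them fell, while 4 of 14 endodermal genes rose, the injected sox17b.1.S among them. Of 8 neural plate genes, 2 rose and 1 fell. In a bulk sample, fewer cells of a type and less RNA per cell cannot be told apart, and the part of the change in cell type in these differences was not tested.

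**Figure D3:**
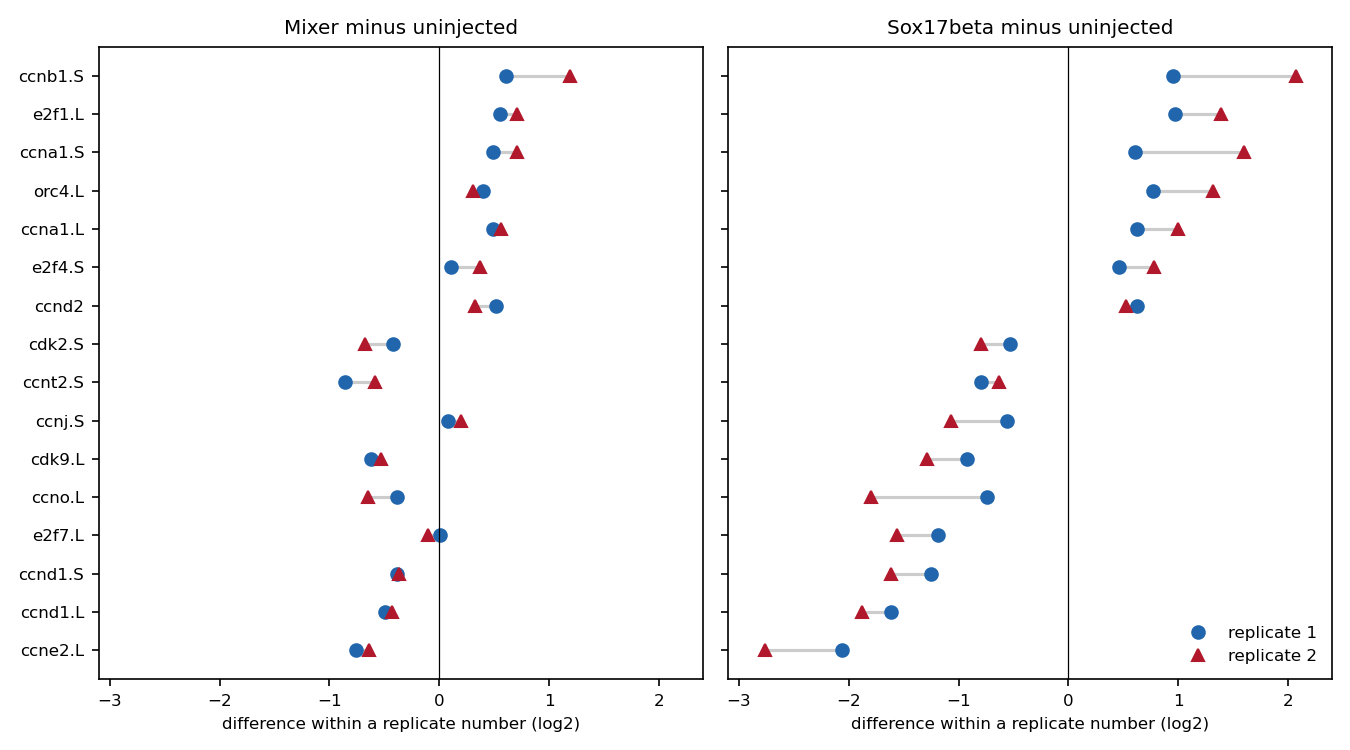
Difference from the uninjected array of the same replicate number, in log2 units, for the 16 members that passed with the block in Sox17beta caps; Mixer caps are on the left and Sox17beta caps on the right, with circles for replicate 1 and triangles for replicate 2. On the right both numbers lie on the same side of 0 for all 16 genes, which the choice by the blocked fit favours. They run from -2.76 for ccne2.L to 2.07 for ccnb1.S, and the triangles lie farther out in 14 genes.

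In Mixer caps, 1 member rose and 1 fell, and the cyclins and E2F factors that changed most in Sox17beta caps did not pass the test. The shares were 0.536% of all probe sets higher and 0.775% lower. The gene that rose was ccng1.L. Cyclin G1 is a target of p53 in mammals and binds a phosphatase. It read 10.80 and 10.62 in Mixer caps, against 9.81 and 8.70 in uninjected caps. Both Mixer arrays lay above both uninjected arrays, whose replicates differed by 1.11. The difference was 1.46 ± 0.23, a 2.74-fold rise (limma, adjusted p 0.0401 with the block and 1 without it). The gene that fell was ccnt2.S, with 6.92 and 7.99 in Mixer caps, against 7.78 and 8.57 in uninjected caps. Its groups overlapped, with Mixer caps lower within each number, and the difference was -0.72 ± 0.12 (limma with the block, adjusted p 0.045). With any 1 of the 6 arrays left out, neither gene passed. Beside these calls, 8 of 14 endodermal markers rose in Mixer caps with the block, the injected mixer.L among them. Of 13 epidermal and ectodermal markers, 1 fell, although both Mixer arrays lay below both uninjected arrays in 9 and above them in 1. The median difference of the 13 was -1.155 log2 units. The part of these markers in the differences was not tested.

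The remaining Mixer differences were smaller than 1 log2 unit and did not pass. The largest was that of ccnb1.S, with 11.71 and 10.61 in Mixer caps, against 11.10 and 9.42 in uninjected caps. Its groups overlapped, and the difference was 0.90 ± 0.24, at 0.61 within replicate 1 and 1.19 within replicate 2 (limma with the block, adjusted p 0.159). The cyclin A1 copies ccna1.S and ccna1.L differed by 0.60 and 0.53, also with groups that overlapped. These 3 genes, given because they rose in Sox17beta caps, were positive within both replicate numbers in Mixer caps too, against the same uninjected arrays. Several lay outside the range of the uninjected arrays, and 19 of 94 members (20.2%) had groups that did not overlap, against 22.1% of all probe sets. Of the 19, 7 lay higher (7.45% of members, 12.6% of all probe sets) and 12 lower (12.8% and 9.41%). Among these, the cyclin and kinase genes ccne2.L, cdk9.L, cdk2.S, ccnf.L, ccno.L and ccnl2.L differed by -0.70, -0.58, -0.55, -0.53, -0.52 and -0.46. Their adjusted p lay between 0.0986 and 0.479 in limma with the block. In the same set, e2f1.L differed by 0.63 (adjusted p 0.0897 in limma with the block), and the helicase subunit gene mcm3.L by 0.36. Smaller differences belonged to ccnd2 (0.43), cdk10.L (0.28), ccnt1.L (0.25), ccna2.S (0.15), cdk16.L (-0.03), ccni2.L (-0.21), ccnb3.L (-0.21), cdk7.L (-0.24) and cdc14b.S (-0.24). Of these, ccnd2, ccnt1.L and cdk16.L lay at or below the absent-transcript controls on all 6 arrays. The helicase subunit gene mcm6.2.L, which differed by -0.74, lay there too. In the fit without the block, the smallest p of 4 other roles belonged to ccnb3.S at -0.44, cdc25a.L at 0.04, the Cdk2-binding gene cdk2ap1.S at -0.25 and the transcription elongation gene cdc73.S at 0.12.

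**Figure D4:**
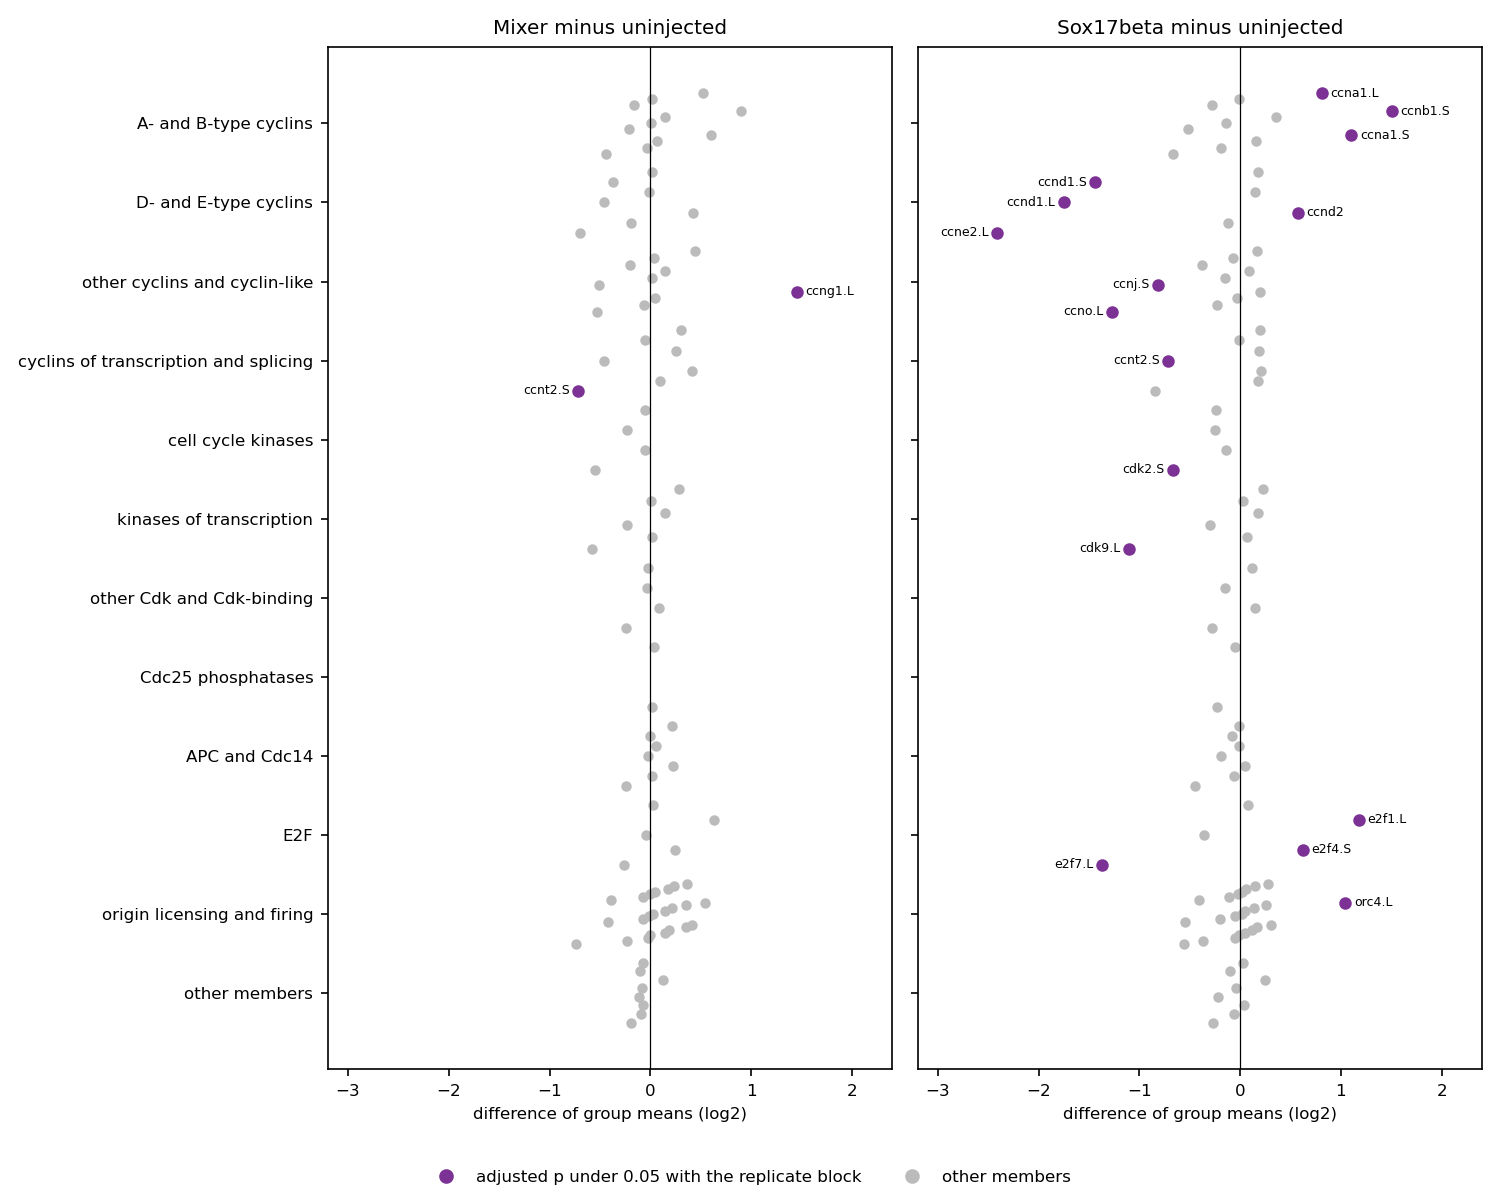
Difference of group means, in log2 units, for all 94 members by role, Mixer minus uninjected on the left and Sox17beta minus uninjected on the right; purple points had an adjusted p under 0.05 in limma with the replicate block and grey points did not. On the right the D- and E-type cyclins reach -2.41 and the A- and B-type cyclins 1.51, and on the left ccng1.L and ccnt2.S are the named points.

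The injected groups were also set against each other, which tests the difference between the responses directly because the uninjected arrays cancel. Of 7 D- and E-type cyclins, ccne2.L and both copies of ccnd1 were higher in Mixer caps than in Sox17beta caps and the other 4 did not pass, and e2f7.L, ccng1.L and ccnj.S were higher as well. All 6 members that passed were higher in Mixer caps, where 1.0% of all probe sets were. The values of ccne2.L were 7.73 and 8.07 in Mixer caps, against 6.43 and 5.95 in Sox17beta caps. The difference was 1.71 ± 0.20 (limma, adjusted p 0.0119 with the block and 0.263 without it). The values of ccnd1.L were 8.26 and 7.81 in Mixer caps, against 7.13 and 6.36 in Sox17beta caps, and those of ccnd1.S 9.34 and 8.86 in Mixer caps, against 8.47 and 7.61 in Sox17beta caps. In none of these genes did the groups overlap, and the D1 copies differed by 1.29 ± 0.12 and 1.06 ± 0.13 (limma with the block, adjusted p 0.00703 and 0.0169).

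The repressor gene e2f7.L read 9.78 and 9.49 in Mixer caps, against 8.58 and 8.03 in Sox17beta caps, and its difference was 1.33 ± 0.13 (limma with the block, adjusted p 0.00703). Mixer caps held e2f7.L within 0.1 log2 units of the uninjected arrays of the same number. The values of ccng1.L were 10.80 and 10.62 in Mixer caps, against 9.88 and 8.80 in Sox17beta caps, a difference of 1.37 ± 0.23 (limma with the block, adjusted p 0.0412). The values of ccnj.S were 9.11 and 8.87 in Mixer caps, against 8.47 and 7.60 in Sox17beta caps, a difference of 0.96 ± 0.17 (limma with the block, adjusted p 0.0476). Its call was lost in 2 of 5 other scalings or filters run with the block. Without Sox17beta replicate 1, the Sox17beta group held 1 array and showed no spread of its own, so the calls of that fit were no check. With any other array left out, no call held. With the block, 6 of 14 endodermal markers were higher in Mixer than in Sox17beta caps, the injected mixer.L among them. The 1 that was lower was sox17b.1.S, which was injected into the Sox17beta caps. Of 13 epidermal and ectodermal markers, 1 was higher, although the median difference of the 13 was 1.09 log2 units. The part of these markers was not tested.

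Other genes whose arrays did not overlap between the injected groups gave ccno.L a difference of 0.76, cdk9.L 0.53, cdc6.L 0.51, cdc73.S 0.34, ccna2.L 0.21 and cdk10.L 0.10. In the same set orc4.L differed by -0.69, e2f1.L by -0.55, ccnb2.S by -0.39 and cdk16.L by -0.15. Their adjusted p in limma with the block lay between 0.12 and 0.725. Groups did not overlap in 16 of 94 members (17%), against 24.5% of all probe sets. Of the 16, 12 lay higher in Mixer caps (12.8% of members, 9.21% of all probe sets) and 4 lower (4.26% and 15.3%). In the fit without the block, the smallest p of 4 other roles belonged to the mitotic activator cdc20.L at 0.41, ccnl2.L at 0.39, cdc25a.L at 0.27 and cdk1.S at 0.18, and none passed in either fit.

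More members differed between the replicate numbers, a comparison of 3 arrays with 3, than between any 2 groups. Tested with the groups in the fit, replicate 1 was higher than replicate 2 in 35 members (20% of all probe sets were) and lower in 21 (19.4% were). The 56 members were 59.6% of 94, against 39.4% of all probe sets, and among probe sets with a mean above the 25th percentile 54 of 88 members passed (61.4%), against 48.3%. All 3 replicate 1 arrays lay on one side of all 3 replicate 2 arrays in 53 of 94 members (56.4%), against 44.5% of all probe sets. The median difference of the members was 0.16, against 0.03 over all probe sets. In all 56 the difference had the same sign in the Mixer, Sox17beta and uninjected caps, and 8 of them reached 2-fold. The test favours a shared sign, because its error grows with disagreement among the groups. The labels do not say what a replicate number stands for.

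Most genes of origin firing and origin recognition were higher in replicate 1, and most Mcm2 to Mcm8 genes were lower. The kinase gene cdc7.L, which triggers origin firing, read 6.81 and 5.42 in Mixer caps, 6.47 and 5.22 in Sox17beta caps, and 6.12 and 5.02 in uninjected caps, replicate 1 before replicate 2. The difference was 1.25 ± 0.10 (limma, adjusted p 0.000437), although it lay above the absent-transcript controls on only 2 arrays. The largest origin recognition subunit, orc1.L, read 9.27 and 8.18 in Mixer caps, 9.17 and 8.07 in Sox17beta caps, and 8.86 and 7.76 in uninjected caps, replicate 1 again before replicate 2. Replicate 1 was higher by nearly the same amount in every group, with a difference of 1.10 ± 0.09 (limma, adjusted p 0.000437). The fork proteins cdc45.L and mcm10.L and the loader cdc6.S differed by 1.09, 1.04 and 0.84. Of 5 genes for Cdc6, Cdc7, Cdc45 and Mcm10, 4 were higher and 0 lower, and of 6 Orc genes 4 were higher (orc1.L, orc5.L at 0.80, orc4.L at 0.53 and orc2.S at 0.42) and 1 lower (orc3.S at -0.42). Like cdc7.L, orc5.L lay above the absent-transcript controls on only 2 arrays.

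Most Mcm2 to Mcm8 genes went the other way, with 9 of 12 called lower in replicate 1 and 0 called higher. The values of mcm7.L were 9.20 and 10.50 in Mixer caps, 9.51 and 10.63 in Sox17beta caps, and 9.83 and 10.33 in uninjected caps, replicate 1 before replicate 2. All 3 replicate 1 arrays lay below all 3 replicate 2 arrays, by -0.97 ± 0.16 on average (limma, adjusted p 0.00312). The .S copy had a difference of -0.95. The others called lower were mcm6.2.L (-0.92), mcm6.2.S (-0.58), mcm2.L (-0.54), mcm8.L (-0.43), mcm4.L (-0.42), mcm5.L (-0.40) and mcm6.L (-0.38). The 3 not called had positive differences, at 0.25 for mcm3.L, 0.15 for mcm5.S and 0.10 for mcm4.S. In mcm3.L the difference was positive in every group (limma, adjusted p 0.0694). Of the 12 genes, 3 lay at or below the absent-transcript controls on all 6 arrays, namely both mcm6.2 copies and mcm5.S, and mcm8.L lay above them on 1 array.

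All 4 cell cycle kinase genes were higher in replicate 1, with differences of 0.97 for cdk4.S, 0.60 for cdk1.L, 0.54 for cdk1.S and 0.42 for cdk2.S. Of 11 A- and B-type cyclins, 5 were higher, 0 lower and 6 not called. The largest difference of any member was that of ccna1.S, with 11.24 and 9.61 in Mixer caps, 11.36 and 10.50 in Sox17beta caps, and 10.75 and 8.90 in uninjected caps, replicate 1 before replicate 2. Every replicate 1 array lay above every replicate 2 array, by 1.45 ± 0.18 (limma, adjusted p 0.0014). The others were ccna1.L (1.12), ccnb1.S (1.11), ccnb1.2.S (0.59) and ccnb2.S (0.42). The A- and B-type cyclins that rose in Sox17beta caps, both copies of ccna1 and ccnb1.S, are thus the 3 of their role with the largest differences between replicates.

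The E2F genes e2f8.L, e2f4.S, e2f1.L and e2f7.L were higher in replicate 1, by 0.90, 0.72, 0.47 and 0.34. The D-type cyclins ccnd1.S, ccnd1.L and ccnd2 were higher by 0.61, 0.58 and 0.41, while the E1 cyclin was lower in both copies, by -0.997 for ccne1.L and -0.42 for ccne1.S. The ccnd2 probe set lay at or below the absent-transcript controls on all 6 arrays. The separate ccnd2.L, above them on all 6, differed by -0.24 and was not called (limma, adjusted p 0.0616). No difference between replicates passed for ccne2.L (-0.03), ccno.L (0.04) or cdk9.L (-0.27), which fell in Sox17beta caps. These means pool unlike groups. In Mixer, Sox17beta and uninjected caps in turn, ccne2.L had -0.34, 0.48 and -0.22 and ccno.L -0.13, 0.66 and -0.40. The values of cdk9.L were -0.45, 0.01 and -0.36. Of 7 anaphase-promoting complex and Cdc14 genes, the activators cdc20.L (0.54) and cdc20.S (0.41) were higher and the subunits cdc27.S (-1.08) and cdc23.L (-0.43) lower. The phosphatase gene cdc25a.L was higher by 0.53.

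Among cyclins of transcription and splicing, ccnl1.S (0.91), ccnh.L (0.69), ccnl1.L (0.67) and ccnl2.L (0.56) were higher in replicate 1, and ccnt2.S (-0.94) and ccnk.L (-0.74) were lower. None of the 6 kinases of transcription passed, and the one with the smallest p was cdk19.L at 0.30 (limma, adjusted p 0.0518), at or below the absent-transcript controls on all 6 arrays. Of the other cyclins, ccng2.L (0.81), ccng1.L (0.79) and ccnj.S (0.49) were higher. The neuronal kinase gene cdk5.L was higher by 0.53 and cdk2ap1.S lower by -0.57. The splicing factor genes cdc5l.L (-0.86), cdc5l.S (-0.59) and cdc40.S (-0.39) were lower, as was the translation factor assembly gene cdc123.S (-0.50). When 1 array was left out, all 56 kept their direction. This had to follow, because the difference then rests on the groups left whole, and all 56 had the same sign in every group. The number that still passed was 43 without a Sox17beta array, 34 without an uninjected array and 12 without a Mixer array.

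**Figure D5:**
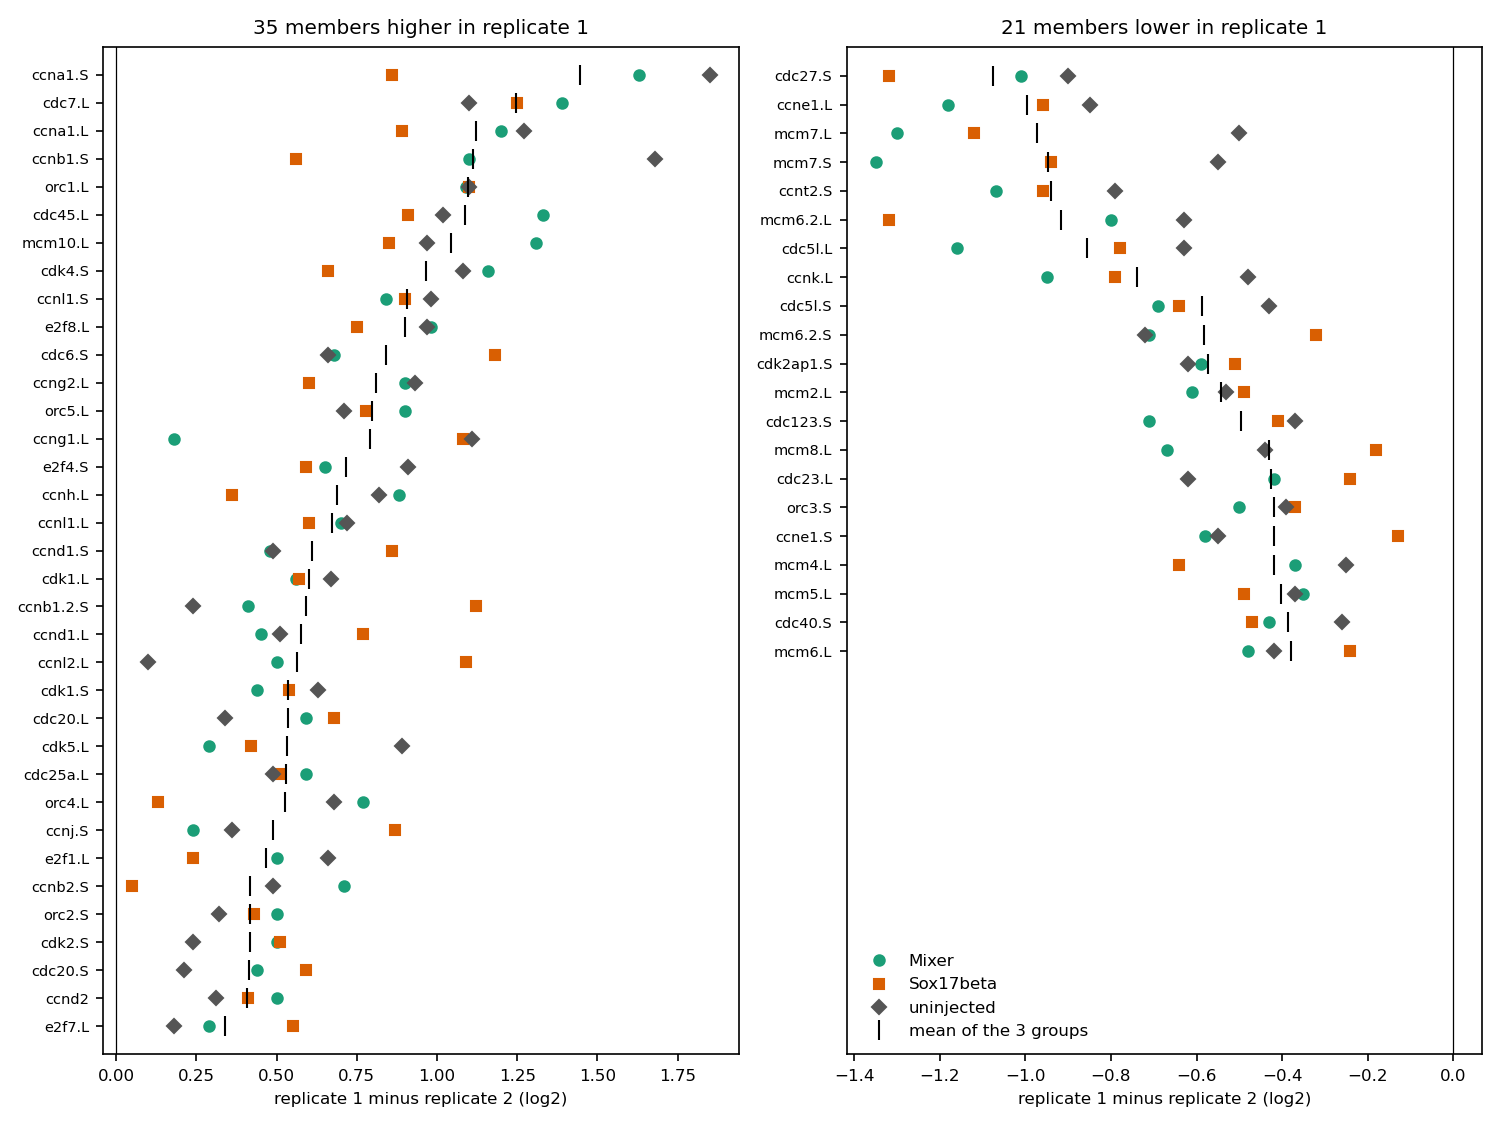
Replicate 1 minus replicate 2, in log2 units, within Mixer (circles), Sox17beta (squares) and uninjected caps (diamonds), with a bar for the mean of the 3 groups, for the 35 members higher (left) and the 21 lower (right) in replicate 1. No point crosses 0, which the choice by the test between replicates favours. The origin genes cdc7.L, orc1.L, cdc45.L and mcm10.L stand high on the left, and mcm7.L, mcm7.S and mcm6.2.L high on the right.

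For the 20 genes measured in both copies, the .L and .S differences had the same sign in 16 genes for Mixer against uninjected caps, in 15 for Sox17beta against uninjected caps, in 15 for Mixer against Sox17beta caps and in 12 between the replicates. The median gap between copies was 0.11, 0.20, 0.17 and 0.33 log2 units in the same order. Copies are close in sequence, and how far a probe set reads the other copy was not tested. The widest gap between replicates was that of cdc23, with -0.43 for the .L copy and 0.16 for the .S copy. For mcm4 and mcm5 too, the .L copy was lower in replicate 1 (-0.42 and -0.40) and the .S copy was not called (0.10 and 0.15), and mcm5.S lay at or below the absent-transcript controls. Copies differed in sign between replicates also for ccna2 (-0.05 and 0.16), ccnb3 (0.18 and -0.36), ccni (-0.28 and 0.27), ccnyl1 (-0.29 and 0.17) and cdk11b (-0.19 and 0.11), with neither copy called. In Sox17beta against uninjected caps, the signs differed for ccne1 (0.15 and -0.12), ccni (-0.08 and 0.17), ccnl1 (0.18 and -0.01), ccnyl1 (0.20 and -0.03) and mcm5 (-0.20 and 0.14). None of those passed.

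Of 16 genes with several probe sets, none had a call in Mixer or Sox17beta caps against uninjected caps. All probe sets of a gene had 1 sign in 11 of the 16 for Sox17beta against uninjected caps and for the replicates. The Cdc25A gene cdc25a.L gave opposite calls between replicates. Its brighter probe set read 10.32 and 9.73 in Mixer caps, 10.01 and 9.50 in Sox17beta caps, and 10.23 and 9.74 in uninjected caps. The other read 8.27 and 8.99 in Mixer caps, 8.30 and 8.98 in Sox17beta caps, and 8.32 and 8.86 in uninjected caps. The first was higher in replicate 1 in each group by 0.53 and the second lower by -0.65, both called, so the direction for this gene depends on the probe set. For ccne1.L, 2 probe sets had differences of -0.997 and -1.05, and the third had 0.26. In Mixer against uninjected caps, the brighter cdk7.L probe set had -0.24 and the other 0.16. For cdk16.L these were -0.03 and 0.22. In Sox17beta against uninjected caps, signs differed among the probe sets of cdc25a.L, cdk7.L, cdk11b.S, cdk16.L and mcm6.2.S, with none called.

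Other genes of the same processes were counted from 2 lists. Of 36 further replication genes, 0 passed in any comparison between groups, in limma with or without the block. With the block, the smallest p values belonged to pcna.S (0.77), the polymerase clamp, and gmnn.L (0.74), the licensing inhibitor geminin, in Mixer against uninjected caps, and to dbf4.L (-0.44), the activating subunit of Cdc7, and tyms.L (-0.36) in Sox17beta against uninjected caps. Between replicates, 11 of the 36 were higher and 7 lower in replicate 1, against 20% and 19.4% of all probe sets. Of 49 further cell cycle regulators, 3 rose in Mixer caps and 0 fell, against 0.536% and 0.775% of all probe sets. The 3 were wee1.S, a kinase that restrains Cdk1, at 1.01, the growth regulator myc.S at 1.14 and anapc10.L at 0.70. The last is a gene of the anaphase-promoting complex.

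In Sox17beta caps, 2 of the 49 rose and 2 fell, against 1.88% and 3.56% of all probe sets. The Myc copy myc.L read 6.13 and 5.46 in Sox17beta caps, against 7.47 and 7.98 in uninjected caps, with groups that did not overlap. Both Sox17beta readings lay below the highest absent-transcript control of their array, at 6.62 and 6.09. The fall of myc.L was -1.93 ± 0.25 (limma with the block, adjusted p 0.00836), and cks1b.S, a Cdk-binding protein, fell by -0.51. Those that rose were anapc10.L at 0.65 and fzr1.L, an activator of the anaphase-promoting complex, at 0.53. Between the injected groups, myc.S and wee1.S were higher in Mixer caps by 1.63 and 0.97 (limma with the block, adjusted p 0.00719 and 0.0169). Between replicates, 22 of the 49 were higher and 7 lower in replicate 1, against 20% and 19.4% of all probe sets. Without the block, 0 of the 49 passed in any comparison between groups.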

How the data were processed

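RNA from 6 samples was measured on Affymetrix Xenopus arrays. The deposited values are log2 expression per probe set, summarised by RMA (background correction, normalization across arrays and probe summary) according to the submitters' processing notes. The RMA version, and whether all 6 arrays went through it together, is not given in the sources used here. Differences can understate changes near background. No further scaling was applied, and 2 arrays per group limit the precision.

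The table held 15611 probe sets, 120 of them controls, which were not tested. Gene symbols came from the platform's annotation: of 15491 tested probe sets, 9304 had 1 symbol, 195 several and 5992 none. By gene identifier, 93 of the 94 members matched RefSeq, and 0 of their symbols changed.

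Group means of all 6 arrays were fitted with limma 3.58.1 (R 4.3.3; lmFit, eBayes, two-sided). One fit had no block and the other took the replicate number as its block, with Benjamini-Hochberg adjustment per comparison. Residual degrees of freedom were 3 and 2. Replicate 1 minus replicate 2 was tested with the groups in the fit. The numbers come from the labels. Deviations from group means correlated between same-numbered arrays at 0.867 (Mixer and uninjected), 0.732 (Sox17beta and uninjected) and 0.776 (Mixer and Sox17beta). The labels state no block, so the fit without it was the main test and the fit with it an alternative. Each fit was run on simulated data with the same replicate effect in every group and independent errors, as the blocked fit assumes. Such data could not check that fit where groups differ in their replicate effect. Plots used Python 3.11.15 and matplotlib 3.10.9.

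The text names each member that passed, then the largest differences among groups that did not overlap (to 20 genes in a comparison). It also names the smallest p of each role (fit without the block), and some of the copies and probe sets of differing sign. Members, lists and rules were chosen with earlier results of these data known. Alternatives were the replicate block, scaling, a filter on dim probe sets, an intensity trend, 4 arrays alone, mean probe sets and leaving out each array. The comparisons with uninjected caps share the uninjected arrays.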

Additional observations from a re-analysis of the deposited data

Results flagged for a closer look

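For 6 members the response to Mixer and the response to Sox17beta differed in limma with the replicate block, tested as Mixer minus Sox17beta. The differences were 1.71 for ccne2.L, 1.37 for ccng1.L, 1.33 for e2f7.L, 1.29 for ccnd1.L, 1.06 for ccnd1.S and 0.955 for ccnj.S, and without the block 0 of the 6 passed. For ccne1.L, ccnyl1.L, cdc20.L, cdc6.S and cdk16.L, every Mixer array moved one way from the uninjected array of its number. Every Sox17beta array moved the opposite way. These genes were chosen for that pattern and had no call in the test of the difference. Mixer minus Sox17beta was -0.34 for ccne1.L, -0.265 for ccnyl1.L, 0.405 for cdc20.L, 0.58 for cdc6.S and -0.145 for cdk16.L. The last lay at or below the absent-transcript controls on all 6 arrays. Other probe sets of ccne1.L, ccnyl1.L and cdk16.L did not keep the pattern. The other ccnyl1.L probe set differed from uninjected caps by 0.01 and -0.04 within replicates 1 and 2 in Mixer caps. Another ccne1.L probe set differed from uninjected caps by -0.11 and 0.23 within replicates 1 and 2 in Sox17beta caps. The other cdk16.L probe set, also at or below those controls, gave 0.265 for Mixer minus Sox17beta. How many of all probe sets have the pattern was not counted. Within replicates 1 and 2, cdc6.S differed from uninjected caps by 0.04 and 0.02 in Mixer caps and by -0.29 and -0.81 in Sox17beta caps. Groups of 2 arrays are too small for a test of a single far value within a group; results without each array are given with the processing alternatives.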

How the results depend on the processing

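Counts of all probe sets passing without and with it were 6 and 203 for Mixer against uninjected caps, 3 and 844 for Sox17beta against uninjected caps, and 9 and 241 for Mixer against Sox17beta caps. Counts of members were 0 and 2, 0 and 16, and 0 and 6. With the block and quantile normalization, median centring, the dim filter, mean probe sets or an intensity trend, all chosen after seeing the data, the probe sets were 281, 227, 178, 170 and 210 for Mixer, 926, 887, 749, 735 and 847 for Sox17beta, and 322, 280, 197, 202 and 267 between the injected groups. Members under these were 2 for Mixer, 15 or 16 for Sox17beta and 5 or 6 between the injected groups. Without the block, the 4 arrays compared gave 1, 0 and 1 probe sets, an intensity trend 13 for Sox17beta and 14 between the injected groups, and quantile normalization 5 for Sox17beta. Leaving out 1 array gave 0 to 1, 0 to 5 and 1 probe sets without the block, and 0 to 2, 0 to 582 and 0 to 136 with it. Members then numbered 0 for Mixer, 0 to 12 for Sox17beta and 0 to 3 between the injected groups with the block. The lone array left in a group was assumed to vary like the others. Replicate differences numbered 6108 probe sets and 56 members with all arrays, 1211 to 4625 probe sets and 12 to 47 members without 1 array (of the 56, 12 to 43), and 4708 and 40 without group terms. The mean of its probe sets turned the replicate difference of cdc25a.L to -0.0583, because its probe sets moved in opposite directions. The cause of the other changes was not tested. Members at the level of the absent-transcript controls limit what the arrays can show.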
